A study of Mus musculus with 12 samples.

Results

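The genes described here are 38 genes of megakaryocytes and platelets, taken by name from the table of 55291 genes measured in LK cells of 4 mouse genotypes. The list follows the known roles of the genes in megakaryocytes and platelets. All 38 were in the table, and 36 passed the filter on low counts, which kept 15825 genes in all. The 2 genes that did not pass were Gp1bb, with 2 to 24 reads per library, and Gp6, with 0 to 16 reads. By role, 12 members encode surface and adhesion proteins, 8 granule and secreted proteins, 8 receptors and other signaling proteins of the platelet membrane, 3 enzymes of eicosanoid synthesis, 2 transcription regulators, and 5 proteins of the cytoskeleton and of granule traffic.

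LK cells are lineage-negative bone marrow cells that carry cKit, the receptor for stem cell factor. They were isolated with magnetic beads from C57BL/6 mice, and RNA from each mouse gave 1 library. WT, Kdm6bΔ/+, Asxl1Y588XTg, and Asxl1Y588XTg Kdm6bΔ/+ were represented by 3 mice each at 12 months of age, and the Asxl1Y588XTg mice were preleukemic. Asxl1Y588XTg mice express a truncated form of ASXL1, a chromatin regulator, from a transgene. In the mice carrying Kdm6bΔ/+, Cre recombinase expressed from the interferon-responsive Mx1 promoter removed 1 allele of Kdm6b after injection of pI:pC, a synthetic RNA that induces interferon. Kdm6b encodes a demethylase of histone H3 lysine 27. Whether the WT and Asxl1Y588XTg mice of these libraries carried Cre or received pI:pC was not given in the sources used here. The comparisons ask how the transgene changed these genes in LK cells and how the loss of 1 Kdm6b allele changed them with and without the transgene.

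Megakaryocytes are the large marrow cells that shed platelets, and they arise from HSCs through progenitors that share many genes with erythroid progenitors. The hormone thrombopoietin drives their growth, and GATA1, FLI1, RUNX1, and NFE2 switch on the genes for adhesion receptors, granule proteins, and the tubulin ring of the platelet. Platelets bind collagen and von Willebrand factor through glycoprotein receptors, respond to thrombin, ADP, and thromboxane, and release the content of their granules. Some of these genes, among them Vwf, Itga2b, and Selp, are also known to be transcribed in a part of the HSCs.

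The libraries held from 14451522 to 23482563 reads assigned to genes. Kdm6b was at 76.5 to 92.3 CPM in Kdm6bΔ/+ and at 106 to 135 CPM in WT, and at 93.8 to 109 CPM in Asxl1Y588XTg Kdm6bΔ/+ and at 124 to 131 CPM in Asxl1Y588XTg, where CPM are read counts scaled to the size of the library after TMM normalization. Kit, the marker of the selection, was at 328 to 441 CPM in all libraries, while Cd3e, a T-cell marker, stayed under 1 CPM. Transcripts of mature lineages were not absent, and the sum of 5 such markers was 84.5 to 175 CPM over the libraries. Y-linked transcripts were present in 0 of 3 WT, 2 of 3 Kdm6bΔ/+ (1 and 3), 1 of 3 Asxl1Y588XTg (2), and 3 of 3 Asxl1Y588XTg Kdm6bΔ/+ libraries, so that sex and genotype cannot be told apart between Asxl1Y588XTg Kdm6bΔ/+ and WT.

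The members spanned a wide range of levels in WT LK cells. Levels of different genes were compared as RPKM, which divides CPM by the exon length in kilobases. The tetraspanin gene Cd9 was the highest, at 82.1 ± 12.2 RPKM (SD, n = 3), followed by the transcription factor gene Nfe2 at 72.0 ± 3.47 RPKM. Bin2, Ptgs1, Plek, and Zfpm1 followed with means from 53.3 to 30.4 RPKM. The WT ranges of Cd9 (73.4 to 96.0 RPKM) and Nfe2 (69.3 to 75.9 RPKM) overlapped, whereas that of Bin2 (48.4 to 59.6 RPKM) lay below both. Genes that mark the megakaryocyte lineage more narrowly were lower, with Pf4 at 24.7 ± 12.9, Itgb3 at 12.6 ± 1.33, Itga2b at 10.1 ± 2.56, and Vwf at 2.88 ± 0.993 RPKM. Several genes of the mature platelet were near the floor, and Tubb1, Gp1bb, P2ry12, and Gp6 had WT means of 0.873, 0.107, 0.177, and 0.0208 RPKM. Among the tested genes with an exon length, Cd9 stood at the 97.4th percentile of WT RPKM, Itga2b at the 69.6th, Vwf at the 44.6th, and Tubb1 at the 27.2nd.

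**Figure D1:**
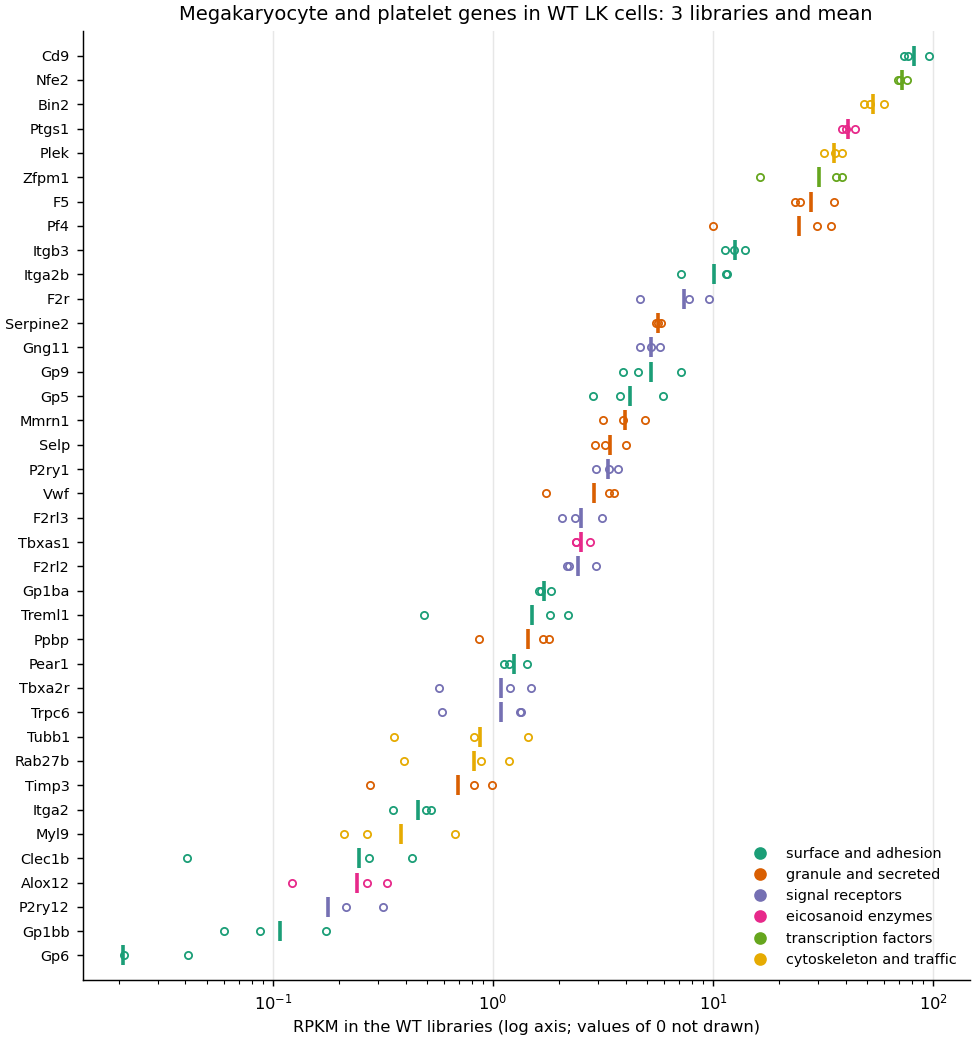
RPKM of the 38 members in the 3 WT libraries (open circles) with their mean (bar), on a log axis and colored by role. Means run from 0.0208 for Gp6 to 82.1 for Cd9, and the libraries of Clec1b, Treml1, Pf4, and Zfpm1 lie far apart.

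The summed level of the 38 members was highest in Asxl1Y588XTg. The sum was 1567 ± 31.7 CPM in WT, 1431 ± 93.4 CPM in Kdm6bΔ/+, 2265 ± 469 CPM in Asxl1Y588XTg, and 1769 ± 99.0 CPM in Asxl1Y588XTg Kdm6bΔ/+ (SD, n = 3 each). All 3 Asxl1Y588XTg libraries (2186, 2769, and 1841 CPM) lay above all 3 WT libraries (1531, 1590, and 1580 CPM), but library 3 of Asxl1Y588XTg lay below library 3 of Asxl1Y588XTg Kdm6bΔ/+ (1877 CPM). Cd9, F5, Ptgs1, Nfe2, Zfpm1, Plek, and Bin2, each above 100 CPM in WT, made up 73.4% of the WT sum. Without these 7 genes the mean sum was 416 CPM in WT, 334 CPM in Kdm6bΔ/+, 1001 CPM in Asxl1Y588XTg, and 566 CPM in Asxl1Y588XTg Kdm6bΔ/+. In such bulk samples, a different number of cells of a type and a different amount of RNA per cell cannot be told apart.

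Libraries of the same genotype also differed in many of these genes together. Library 2 of Asxl1Y588XTg was the highest of its genotype in 28 of the 36 tested members, against 35.1% of all tested genes, and library 3 was the lowest in 27. In library 2, 15 members were more than 1.5 times the mean of the other 2 libraries, against 6.1% of all tested genes. Ppbp (3.87 times), Pf4 (3.60 times), and Treml1 (2.86 times) led, while Selp (1.01 times), Gng11 (1.09 times), and Pear1 (1.18 times) were close to that mean. In library 3, 20 members were below 0.67 times the mean of the other 2, against 9.79% of all tested genes. Library 2 was also the Asxl1Y588XTg library with Y-linked transcripts. The part of sex in its values was not tested, and fits with a term for Y-linked transcripts are given below. WT library 2 was mixed. In it, 15 members were below 0.67 times the mean of the other 2 (10.7% of all tested genes), and 2 were above 1.5 times (13.6%). Treml1 was at 0.243, Timp3 at 0.303, Pf4 at 0.312, and Zfpm1 at 0.435 times that mean, while Clec1b was at 2.71 times. WT library 2 was the highest of its genotype in 13 members (36.8% of all tested genes). It was the lowest in 19, for which the share of all tested genes was not taken. Its sum of the members, 1590 CPM, was the highest in WT. That library also had the lowest sum of 12 erythroid markers in WT, 691 CPM against 1202 and 1275 CPM, and Gata1, a regulator shared by both lineages, was at 27.3 CPM in it against 59.1 and 61.1 CPM. The part of these libraries in the results was measured by leaving each out in turn, as given below.

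**Figure D2:**
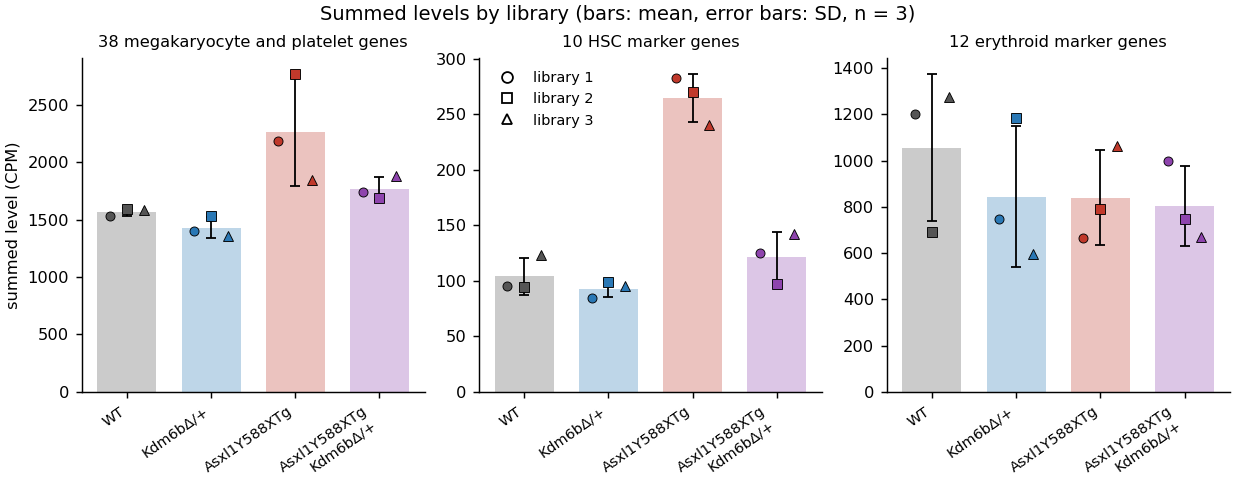
Summed CPM of the 38 members, of 10 HSC markers, and of 12 erythroid markers in each library (points, shape by library number), with mean (bar) and SD (error bar, n = 3). The members' sum runs from 1841 to 2769 CPM in Asxl1Y588XTg and from 1531 to 1590 CPM in WT, and the HSC markers' sum from 241 to 283 CPM and from 94.0 to 123 CPM.

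In Asxl1Y588XTg against WT, 4 members rose and 0 fell. Selp, Pear1, Mmrn1, and Trpc6 passed edgeR's quasi-likelihood test (Benjamini-Hochberg adjusted p under 0.05 over all genes tested) with a fold change above 1.5, which is 11.1% of the tested members, while 1.58% of all tested genes were called higher and 0.0316% lower. The median log2 fold change was 0.78 over the 36 tested members and -0.01 over all tested genes. The 3 transgenic libraries did not overlap the 3 WT libraries and lay above them in 15 members, or 41.7%, against 10.5% of all tested genes. The log2 fold change was above 0 in 32 of 36 members and in 47.8% of all tested genes. Without library 2 of Asxl1Y588XTg the median was 0.42, with 30 members above 0. Markers of HSCs moved with the members, and 8 of 10 were called higher, with a sum of 241 to 283 CPM in Asxl1Y588XTg and 94.0 to 123 CPM in WT. Of 12 erythroid markers, 12 were below 0, with a median of -0.28, and 0 were called. Their sum was 665 to 1064 CPM in Asxl1Y588XTg and 691 to 1275 CPM in WT. Of 8 endothelial and stromal markers, 7 were above 0, 4 did not overlap, and 0 were called, with a median of 0.95. Their sum was 83.3 to 106 CPM in Asxl1Y588XTg and 64.9 to 82.0 CPM in WT, and Cdh5, which defines endothelium, was at 0.461 to 1.95 CPM and 0.249 to 0.364 CPM. The part of these cell types in the members' result was not tested.

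In Asxl1Y588XTg Kdm6bΔ/+ against Asxl1Y588XTg, Selp and Trpc6 fell and 0 members rose. These 2 calls are 5.56% of the tested members, beside 1.59% of all tested genes called lower and 0.145% called higher. The median log2 fold change was -0.25 over the tested members and 0.00 over all tested genes. The libraries did not overlap, with the double mutant lower, in 10 members, or 27.8% (14.1% of all tested genes), and did so with the double mutant higher in 1 member, Tubb1 (7.11%). Without library 2 of Asxl1Y588XTg the median was -0.03, and 18 of 36 members were above 0, as they were in 10 of 36 with it and in 49.2% of all tested genes. Of the HSC markers, 7 of 10 were called lower in the same comparison, while the endothelial and stromal markers had 3 of 8 below 0 and 0 called.

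In Kdm6bΔ/+ against WT, edgeR called 0 members, beside 0.0948% of all tested genes. At an unadjusted p under 0.05, 8 members were lower and 1 was higher (2.19% and 1.3% of all tested genes). DESeq2 also called 0 members, beside 0.246% of all tested genes. The median log2 fold change was -0.18, with 29 of 36 members below 0, where 49.2% of all tested genes were above 0. Selp, Plek, F2rl2, and Serpine2 were lower in every Kdm6bΔ/+ library than in every WT library, or 11.1% of the members, against 4.8% of all tested genes. Of the 12 erythroid markers, 12 were below 0, with a median of -0.37 and 1 called lower, and their sum was 597 to 1186 CPM in Kdm6bΔ/+ and 691 to 1275 CPM in WT. The part of erythroid cells in the members' values was not tested.

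In Asxl1Y588XTg Kdm6bΔ/+ against Kdm6bΔ/+, the transgene was compared on the background of the deletion. Itga2b and Trpc6 rose, which is 5.56% of the tested members, beside 0.0569% of all tested genes called higher and 0.0379% lower. The median log2 fold change was 0.52 over the tested members and 0.00 over all tested genes. The libraries did not overlap, with the double mutant higher, in 17 members, or 47.2% (9.32% of all tested genes), and did so in the other direction in 0 (9.57%). The transgene comparison on the WT background shares no library with this one, and 31 of the 36 tested members had a log2 fold change above 0 in both, 2 had one below 0 in both, and 3 had opposite signs. Over all tested genes the signs were the same in 57.1%. Itga2b, Itgb3, Gp1ba, Pf4, Vwf, Selp, Mmrn1, Timp3, Trpc6, Tbxas1, and Rab27b were the 11 members whose transgenic libraries lay above the others without overlap on both backgrounds. Of the HSC markers, 10 of 10 were above 0 in the double mutant against Kdm6bΔ/+, 6 did not overlap, and 0 were called.

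Asxl1Y588XTg Kdm6bΔ/+ against WT gave 1 call, a rise of Ppbp, or 2.78% of the tested members, beside 0.145% of all tested genes called higher and 0.0695% lower. The median log2 fold change was 0.26, and the libraries did not overlap, with the double mutant higher, in 10 members, or 27.8% (6.68% of all tested genes). Of the endothelial and stromal markers, 8 of 8 were above 0 and 4 did not overlap, with a sum 1.76 times that of WT, and of the HSC markers 10 of 10 were above 0 and 5 did not overlap, with a sum 1.17 times that of WT. No marker of either list was called, 2 of 12 erythroid markers were called lower, and the part of these cell types was not tested. The interaction tests whether the deletion acted differently with and without the transgene. It gave 0 calls among the members with edgeR and DESeq2, beside 0.0126% of all tested genes with edgeR and 0.417% with DESeq2. At an unadjusted p under 0.05, 5 members were below 0 (Pear1, Selp, Gng11, Tbxa2r, and Mmrn1) and 0 above (4.72% and 2.15% of all tested genes). Without the filter on low counts, 5 members were called lower in the interaction (Itga2b, Mmrn1, Pear1, Selp, and Vwf), beside 0.789% of all genes tested there, so these calls depended on the filter.

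**Figure D3:**
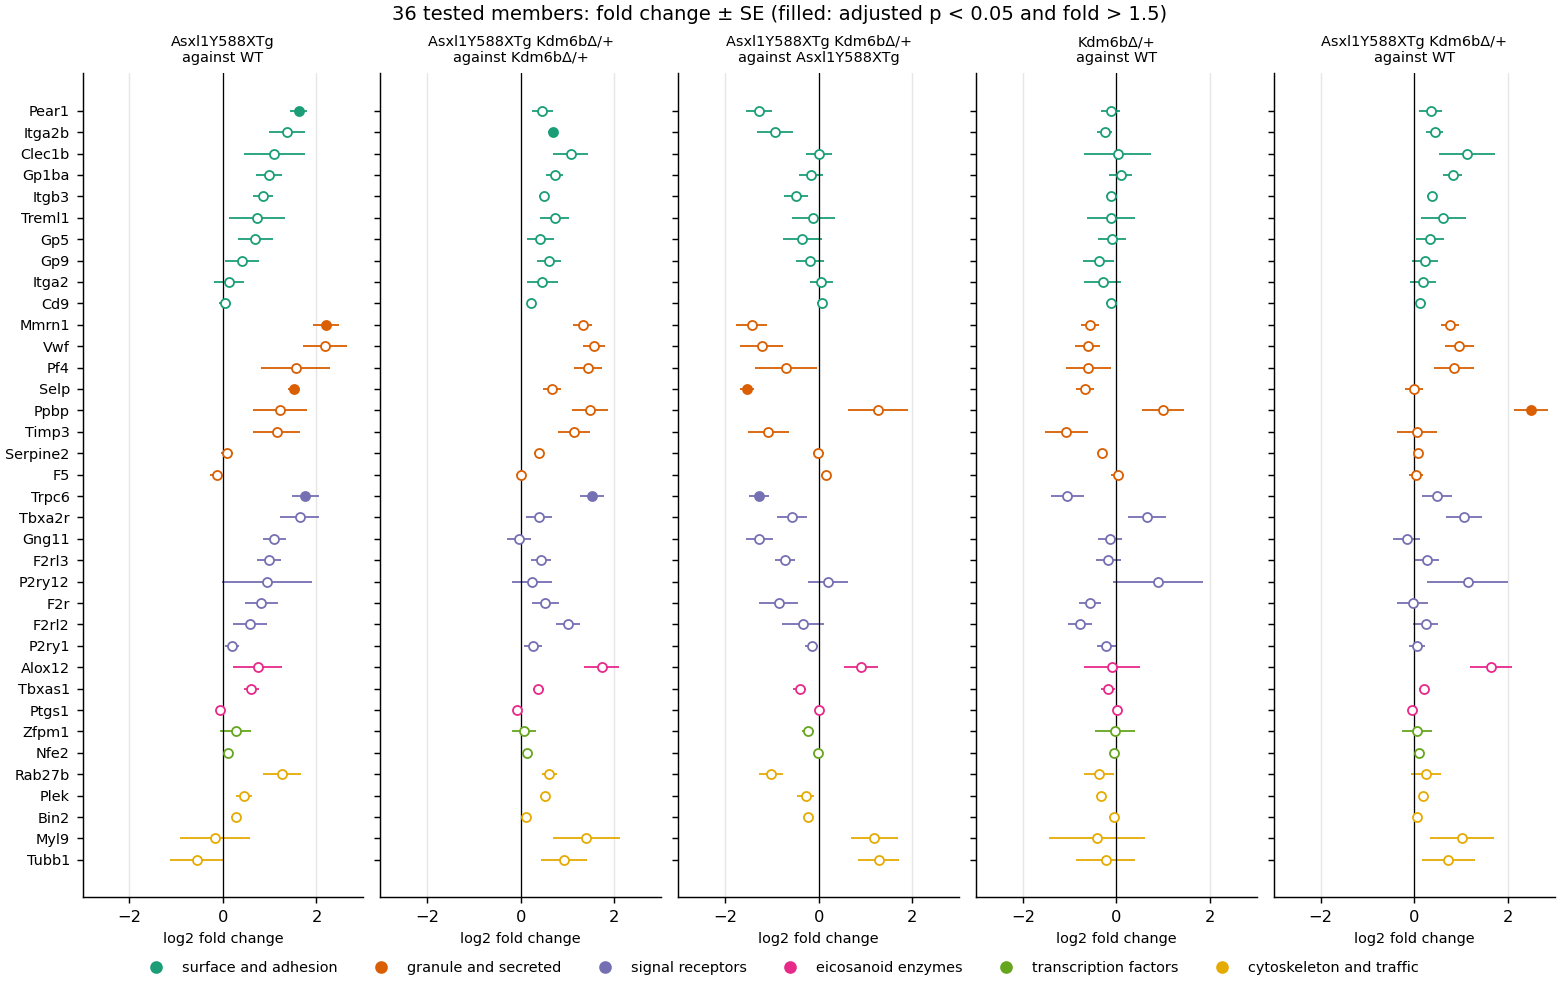
Log2 fold change with SE of the 36 tested members in the 5 comparisons of genotypes, grouped by role and ordered by the Asxl1Y588XTg against WT value. Filled points passed the test with a fold above 1.5, and they number 4, 2, 2, 0, and 1 from left to right.

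By role, the granule and secreted proteins had the largest median log2 fold change in Asxl1Y588XTg against WT, 1.38 over 8 tested genes. P-selectin, encoded by Selp, is stored in platelet granules and carried to the surface to bind leukocytes. It was at 12.9, 17.6, and 14.3 CPM in WT, 7.51, 10.3, and 10.1 CPM in Kdm6bΔ/+, 43.9, 43.3, and 41.8 CPM in Asxl1Y588XTg, and 14.7, 11.4, and 18.3 CPM in Asxl1Y588XTg Kdm6bΔ/+. The 3 Asxl1Y588XTg libraries were high and close together, and all other libraries lay below them. Selp rose by a log2 fold change of 1.52 (SE 0.133, edgeR adjusted p = 0.0011) in Asxl1Y588XTg against WT and fell by 1.52 (SE 0.151, edgeR adjusted p = 0.00265) in Asxl1Y588XTg Kdm6bΔ/+ against Asxl1Y588XTg. Its difference between the double mutant and WT was 0.00 (SE 0.195), with overlapping libraries. In the deletion alone the value was -0.68 (SE 0.196, edgeR adjusted p = 0.9999), without overlap, and in the double mutant against Kdm6bΔ/+ it was 0.67 (SE 0.185, edgeR adjusted p = 0.213). Selp stayed called in all 6 fits that left out 1 library, in both comparisons that called it.

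Multimerin 1, encoded by Mmrn1, is a granule protein that binds factor V. Its level was 23.0, 18.6, and 28.8 CPM in WT, 19.4, 15.0, and 13.2 CPM in Kdm6bΔ/+, 124, 132, and 69.1 CPM in Asxl1Y588XTg, and 46.0, 29.0, and 43.5 CPM in Asxl1Y588XTg Kdm6bΔ/+. Every Asxl1Y588XTg library was above every other library, and the double mutant lay between WT and Asxl1Y588XTg without overlapping either. Mmrn1 rose by 2.20 (SE 0.276, edgeR adjusted p = 0.0145) on the log2 scale in Asxl1Y588XTg against WT, a call that was lost without WT library 1 or WT library 2. In Asxl1Y588XTg Kdm6bΔ/+ against Asxl1Y588XTg the value was -1.43 (SE 0.329, edgeR adjusted p = 0.146).

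Von Willebrand factor, the adhesive protein that tethers platelets to injured vessels, had a similar order of levels with a wider spread. Vwf was at 57.0, 28.0, and 54.0 CPM in WT, 33.9, 32.9, and 24.4 CPM in Kdm6bΔ/+, 178, 333, and 124 CPM in Asxl1Y588XTg, and 107, 63.4, and 98.5 CPM in Asxl1Y588XTg Kdm6bΔ/+. Library 2 was the highest in Asxl1Y588XTg and the lowest in the double mutant, and the double mutant lay between WT and Asxl1Y588XTg without overlap. None of the comparisons called it, with log2 fold changes of 2.18 (SE 0.467, edgeR adjusted p = 0.145) in Asxl1Y588XTg against WT, -1.22 (SE 0.463, edgeR adjusted p = 0.334) in Asxl1Y588XTg Kdm6bΔ/+ against Asxl1Y588XTg, and 1.56 (SE 0.238, edgeR adjusted p = 0.135) in Asxl1Y588XTg Kdm6bΔ/+ against Kdm6bΔ/+.

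Pf4 and Ppbp encode platelet chemokines of the alpha granule and lie next to each other on chromosome 5, with 2371 bases between them. Pf4 was at 21.5, 7.21, and 24.6 CPM in WT, 9.51, 16.7, and 8.98 CPM in Kdm6bΔ/+, 31.6, 102, and 24.8 CPM in Asxl1Y588XTg, and 41.5, 25.2, and 28.9 CPM in Asxl1Y588XTg Kdm6bΔ/+. Ppbp was at 1.82, 0.932, and 1.95 CPM in WT, 1.64, 4.74, and 2.95 CPM in Kdm6bΔ/+, 1.89, 7.33, and 1.90 CPM in Asxl1Y588XTg, and 10.6, 5.23, and 10.5 CPM in Asxl1Y588XTg Kdm6bΔ/+. For both genes library 2 of Asxl1Y588XTg stood far above the other 2, and the double mutant libraries were above all WT libraries. Ppbp rose in Asxl1Y588XTg Kdm6bΔ/+ against WT by 2.49 (SE 0.363, edgeR adjusted p = 0.0241), whereas Pf4 had a value of 0.85 (SE 0.432, edgeR adjusted p = 0.777). The call of Ppbp was lost without WT library 1, WT library 3, double mutant library 1, or double mutant library 3, and in the fit with a term for Y-linked transcripts. In Asxl1Y588XTg against WT, the values were 1.56 (SE 0.741, edgeR adjusted p = 0.663) for Pf4 and 1.23 (SE 0.576, edgeR adjusted p = 0.578) for Ppbp.

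Timp3, an inhibitor of metalloproteinases, was at 8.07, 2.24, and 6.69 CPM in WT, 3.15, 3.50, and 1.48 CPM in Kdm6bΔ/+, 9.39, 20.3, and 8.30 CPM in Asxl1Y588XTg, and 5.62, 3.98, and 8.16 CPM in Asxl1Y588XTg Kdm6bΔ/+. WT library 2 lay among the Kdm6bΔ/+ libraries, and the difference of -1.07 (SE 0.465, edgeR adjusted p = 0.9999) between Kdm6bΔ/+ and WT was not called. Reads of Timp3 are uncertain in part, since 21.3% of its exonic bases overlap Syn3 on the other strand. The same limit holds for P2ry1 (23.1%, with Gm37035) and Cd9 (10.7%, with Gm26728). F5, which encodes coagulation factor V, was close to level, with log2 fold changes from -0.12 to 0.16 over the 5 comparisons. Serpine2, a protease inhibitor, ran from -0.31 in Kdm6bΔ/+ against WT to 0.38 in the double mutant against Kdm6bΔ/+. Its libraries did not overlap in either comparison, and it was not called. F5 starts 1811 bases beyond the end of Selp on chromosome 1, with no other protein-coding gene between them.

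**Figure D4:**
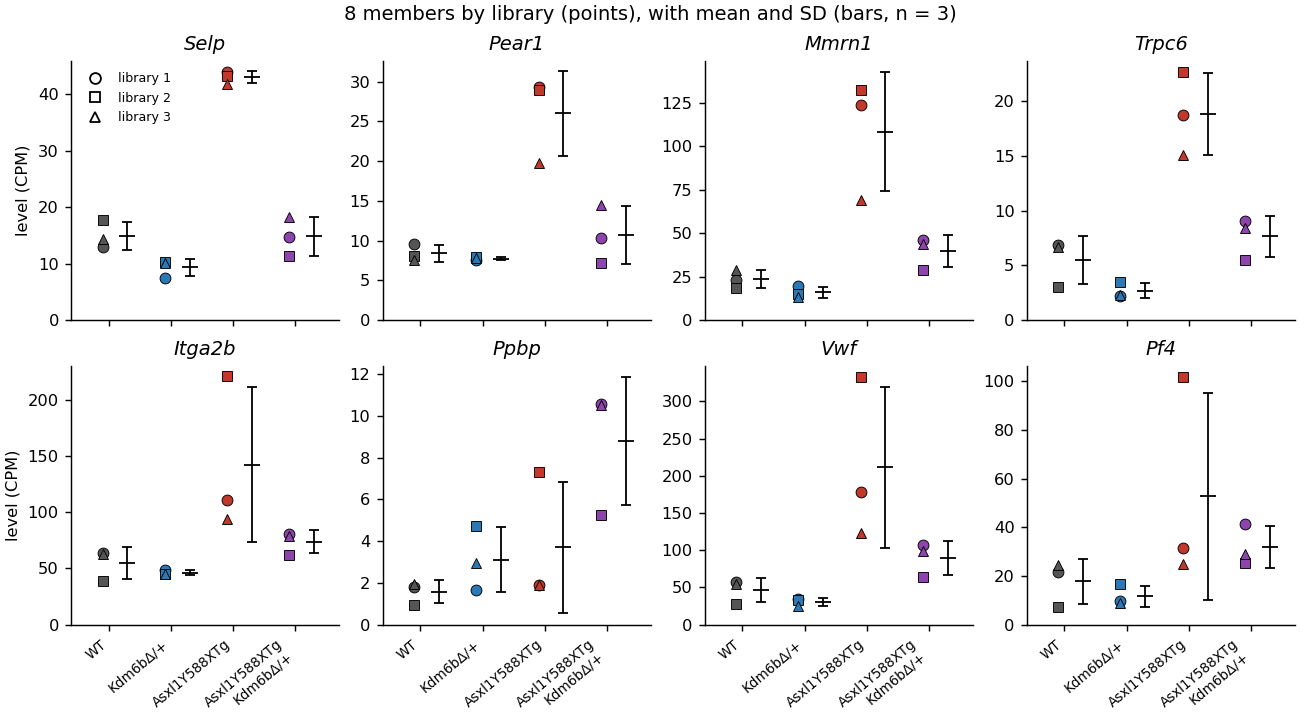
CPM of Selp, Pear1, Mmrn1, Trpc6, Itga2b, Ppbp, Vwf, and Pf4 in each of the 12 libraries (points, shape by library number), with mean and SD (bars, n = 3). The Selp libraries of Asxl1Y588XTg lie within 41.8 to 43.9 CPM, while those of Pf4 spread from 24.8 to 102 CPM.

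Among the surface and adhesion proteins, Pear1 was the member called in Asxl1Y588XTg against WT. It encodes a receptor that signals on contact between platelets. Pear1 was at 9.63, 8.02, and 7.61 CPM in WT, 7.51, 7.90, and 7.80 CPM in Kdm6bΔ/+, 29.3, 28.9, and 19.8 CPM in Asxl1Y588XTg, and 10.4, 7.17, and 14.4 CPM in Asxl1Y588XTg Kdm6bΔ/+. All Asxl1Y588XTg libraries were above the 9 others. The rise in Asxl1Y588XTg against WT was 1.62 (SE 0.185, edgeR adjusted p = 0.0036) on the log2 scale and stayed called without each library in turn. In Asxl1Y588XTg Kdm6bΔ/+ against Asxl1Y588XTg the value was -1.27 (SE 0.279, edgeR adjusted p = 0.0911), without overlap. The interaction value of Pear1 was -1.16 (SE 0.308, edgeR adjusted p = 0.333).

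The 2 chains of the fibrinogen receptor are encoded by Itga2b, the CD41 gene, and Itgb3. Itga2b was at 63.4, 38.8, and 62.5 CPM in WT, 48.7, 44.8, and 44.9 CPM in Kdm6bΔ/+, 111, 221, and 94.3 CPM in Asxl1Y588XTg, and 80.4, 61.9, and 78.7 CPM in Asxl1Y588XTg Kdm6bΔ/+. Itgb3 was at 67.0, 82.7, and 73.7 CPM in WT, 64.6, 76.8, and 63.6 CPM in Kdm6bΔ/+, 132, 181, and 94.0 CPM in Asxl1Y588XTg, and 93.7, 86.0, and 108 CPM in Asxl1Y588XTg Kdm6bΔ/+. Both genes were above WT in every Asxl1Y588XTg library, and above Kdm6bΔ/+ in every double mutant library. Itga2b rose in the double mutant against Kdm6bΔ/+ by 0.68 (SE 0.1001, edgeR adjusted p = 0.0184), a call lost when 1 of 4 libraries was left out (Kdm6bΔ/+ 1 or 3, double mutant 1 or 3), while Itgb3 had 0.49 (SE 0.09995, edgeR adjusted p = 0.107). In Asxl1Y588XTg against WT the values were 1.36 (SE 0.385, edgeR adjusted p = 0.274) and 0.86 (SE 0.216, edgeR adjusted p = 0.146).

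The receptor for von Willebrand factor is a complex of the products of Gp1ba, Gp1bb, Gp5, and Gp9. Gp1ba, the chain that binds the ligand, was at 4.48, 4.97, and 4.38 CPM in WT, 4.86, 5.41, and 4.43 CPM in Kdm6bΔ/+, 7.04, 13.4, and 7.09 CPM in Asxl1Y588XTg, and 9.23, 7.22, and 7.75 CPM in Asxl1Y588XTg Kdm6bΔ/+. The 6 libraries with the transgene were above the 6 without it, but no comparison called Gp1ba, with 0.99 (SE 0.283, edgeR adjusted p = 0.17) in Asxl1Y588XTg against WT and 0.72 (SE 0.181, edgeR adjusted p = 0.171) in Asxl1Y588XTg Kdm6bΔ/+ against Kdm6bΔ/+. Gp9 overlapped among genotypes, at 6.30, 3.42, and 4.02 CPM in WT, 4.58, 3.33, and 2.72 CPM in Kdm6bΔ/+, 6.07, 8.76, and 3.57 CPM in Asxl1Y588XTg, and 6.59, 5.12, and 4.28 CPM in Asxl1Y588XTg Kdm6bΔ/+. Gp1bb, not tested, was at 0.364, 0.124, and 0.183 CPM in WT, 0.286, 0.282, and 0.118 CPM in Kdm6bΔ/+, 0.286, 1.37, and 0.519 CPM in Asxl1Y588XTg, and 0.671, 0.228, and 0.293 CPM in Asxl1Y588XTg Kdm6bΔ/+, with overlap, and 92.9% of its exonic bases lie in exons of Sept5 or Gm49601 on the same strand.

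The other surface genes were not called in any comparison. Gp5, the fourth chain of the complex, ranged from 6.14 to 23.4 CPM over the libraries. Clec1b, the podoplanin receptor, Treml1, a granule membrane receptor, Itga2, a chain of the collagen receptor, and Cd9 had log2 fold changes from 0.05 to 1.10 in Asxl1Y588XTg against WT. Of the 10 tested surface genes, 10 were above 0 in that comparison and 10 in the double mutant against Kdm6bΔ/+, with medians of 0.80 and 0.55.

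Among the receptors and membrane signaling proteins, the cation channel gene Trpc6 was called most often. It was at 6.82, 2.98, and 6.69 CPM in WT, 2.22, 3.44, and 2.30 CPM in Kdm6bΔ/+, 18.7, 22.6, and 15.1 CPM in Asxl1Y588XTg, and 9.06, 5.52, and 8.39 CPM in Asxl1Y588XTg Kdm6bΔ/+. Asxl1Y588XTg was above all other genotypes, and the double mutant was above Kdm6bΔ/+ but overlapped WT. Trpc6 rose in Asxl1Y588XTg against WT by 1.77 (SE 0.298, edgeR adjusted p = 0.0193) and in the double mutant against Kdm6bΔ/+ by 1.52 (SE 0.253, edgeR adjusted p = 0.0426), and fell by 1.27 (SE 0.207, edgeR adjusted p = 0.0209) in the double mutant against Asxl1Y588XTg. In Kdm6bΔ/+ against WT the value was -1.05 (SE 0.358, edgeR adjusted p = 0.9999). Each rise was lost when 1 of 4 libraries was left out (WT 1, WT 3, Asxl1Y588XTg 1, or Asxl1Y588XTg 2 for the first, Kdm6bΔ/+ 1 or 3 and double mutant 1 or 3 for the other), and the fall was lost without double mutant library 1.

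Gng11 encodes a G-protein gamma subunit and Tbxa2r the thromboxane receptor. Gng11 was at 4.27, 4.79, and 5.29 CPM in WT, 4.15, 3.95, and 4.90 CPM in Kdm6bΔ/+, 12.6, 10.9, and 7.38 CPM in Asxl1Y588XTg, and 3.23, 3.53, and 5.99 CPM in Asxl1Y588XTg Kdm6bΔ/+. Asxl1Y588XTg was above the other 3 genotypes, which overlapped. Neither 1.10 (SE 0.243, edgeR adjusted p = 0.0615) against WT nor -1.26 (SE 0.282, edgeR adjusted p = 0.0591) in the double mutant against Asxl1Y588XTg passed the test. Tbxa2r was at 1.09, 2.30, and 2.86 CPM in WT, 4.003, 2.37, and 3.48 CPM in Kdm6bΔ/+, 6.75, 8.87, and 3.86 CPM in Asxl1Y588XTg, and 3.73, 3.47, and 5.75 CPM in Asxl1Y588XTg Kdm6bΔ/+. Asxl1Y588XTg and the double mutant were above WT without overlap. The log2 fold change against WT was 1.64 (SE 0.417, edgeR adjusted p = 0.107) in Asxl1Y588XTg, and in the double mutant it was 1.07 (SE 0.387, edgeR adjusted p = 0.639), and the interaction values of Gng11 and Tbxa2r were -1.14 (SE 0.369, edgeR adjusted p = 0.486) and -1.25 (SE 0.525, edgeR adjusted p = 0.681).

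The thrombin receptor genes F2r, F2rl2, and F2rl3 and the ADP receptor genes P2ry1 and P2ry12 were not called in any comparison. Against WT, their log2 fold changes in Asxl1Y588XTg ran from 0.20 to 0.99, and F2rl3 was the member of this group whose libraries did not overlap, at 9.10, 12.6, and 8.12 CPM against 4.68, 4.10, and 6.21 CPM. P2ry12 had 0 reads in 1 WT library and no more than 1.20 CPM in any library. F2r and F2rl2 are neighbors on chromosome 13, with 78365 bases between them, and were at values of -0.57 and -0.78 in Kdm6bΔ/+ against WT (unadjusted p of 0.0366 and 0.0111 by edgeR, adjusted p = 0.9999 for both).

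The enzymes of eicosanoid synthesis differed from each other. Ptgs1, the cyclooxygenase of platelets, stayed within 144 to 172 CPM in all 12 libraries and within -0.08 to 0.01 in log2 fold change. Tbxas1, thromboxane synthase, was at 38.2, 39.96, and 26.3 CPM in Asxl1Y588XTg against 21.6, 25.0, and 21.6 CPM in WT, without overlap and without a call (0.61, SE 0.160, edgeR adjusted p = 0.125). Alox12, the platelet lipoxygenase, was low in WT, from 0.497 to 1.35 CPM, and at 2.48, 2.33, and 4.46 CPM in Asxl1Y588XTg Kdm6bΔ/+, above WT and Kdm6bΔ/+ without overlap and without a call (edgeR adjusted p = 0.382 and 0.115).

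The 2 transcription regulators, Nfe2 and Zfpm1, showed no call and no separated pair of genotypes. Nfe2, which drives platelet release, was at 212, 227, and 207 CPM in WT, 217, 212, and 199 CPM in Kdm6bΔ/+, 237, 245, and 217 CPM in Asxl1Y588XTg, and 210, 228, and 246 CPM in Asxl1Y588XTg Kdm6bΔ/+. Its log2 fold change in Asxl1Y588XTg against WT was 0.11 (SE 0.0779). Zfpm1, the partner of GATA1, was at 127, 57.1, and 135 CPM in WT, 92.1, 143, and 78.4 CPM in Kdm6bΔ/+, 117, 152, and 117 CPM in Asxl1Y588XTg, and 123, 94.5, and 110 CPM in Asxl1Y588XTg Kdm6bΔ/+. The widest spread of Zfpm1 was thus within genotypes.

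Of the 5 cytoskeleton and traffic genes, 0 were called. Tubb1, the beta tubulin of the platelet ring, was at 2.03, 0.497, and 1.16 CPM in WT, 0.429, 1.58, and 1.12 CPM in Kdm6bΔ/+, 0.687, 1.03, and 0.807 CPM in Asxl1Y588XTg, and 1.47, 1.25, and 3.40 CPM in Asxl1Y588XTg Kdm6bΔ/+. It was the member whose double mutant libraries lay above those of Asxl1Y588XTg without overlap, at 1.28 (SE 0.433, edgeR adjusted p = 0.181) from 12 to 58 reads per library. Rab27b, which acts in granule release, was at 18.1, 30.3, and 15.2 CPM in Asxl1Y588XTg and at 9.42, 4.23, and 12.6 CPM in WT, a value of 1.27 (SE 0.406, edgeR adjusted p = 0.294). Plek, a substrate of protein kinase C, was at 247, 253, and 156 CPM in Asxl1Y588XTg and at 143, 173, and 161 CPM in WT, with overlap. In the double mutant against Kdm6bΔ/+ its value was 0.51 (SE 0.0971, edgeR adjusted p = 0.0771), without overlap and without a call. Bin2, a membrane-bending protein, had log2 fold changes from -0.22 to 0.29, and Myl9, a myosin light chain, had 25 reads or fewer in every library.

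The promoters of the 6 members called in any comparison are shown to let a reader compare what lies before their starts. They are the 250 bases before the RefSeq start (GRCm38.p6, the mm10 assembly), written 5′ to 3′ on the strand of the gene. Motifs were searched on both strands, namely AGATAA for GATA factors, CAGGAAG for ETS factors such as FLI1, TGAGTCA for NFE2, a motif shared with AP-1, and TGTGGT for RUNX factors. The forms AGATAG as well as TGATAA and also TGATAG of the GATA motif were added after the sequences had been seen. Capitals mark a motif or its reverse complement. Selp lies on chr1:164115014-164115263, plus strand, Pear1 on chr3:87768954-87769203, minus strand, Mmrn1 on chr6:60944067-60944316, plus strand, Trpc6 on chr9:8543892-8544141, plus strand, Itga2b on chr11:102469884-102470133, minus strand, and Ppbp on chr5:90768268-90768517, plus strand.
Selp: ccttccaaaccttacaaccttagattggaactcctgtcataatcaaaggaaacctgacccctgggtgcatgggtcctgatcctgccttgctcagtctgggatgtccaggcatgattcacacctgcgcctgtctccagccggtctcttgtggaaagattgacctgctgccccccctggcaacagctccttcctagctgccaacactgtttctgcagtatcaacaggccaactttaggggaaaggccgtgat
Pear1: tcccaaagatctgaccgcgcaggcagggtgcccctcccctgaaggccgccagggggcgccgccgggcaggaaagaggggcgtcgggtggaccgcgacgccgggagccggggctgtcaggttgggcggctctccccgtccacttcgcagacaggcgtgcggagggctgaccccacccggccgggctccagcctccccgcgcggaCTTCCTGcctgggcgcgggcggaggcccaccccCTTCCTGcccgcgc
Mmrn1: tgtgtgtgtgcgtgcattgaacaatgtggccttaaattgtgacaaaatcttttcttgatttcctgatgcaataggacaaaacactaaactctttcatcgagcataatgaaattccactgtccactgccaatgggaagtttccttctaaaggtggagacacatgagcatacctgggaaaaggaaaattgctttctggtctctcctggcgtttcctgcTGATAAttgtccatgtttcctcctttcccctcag
Trpc6: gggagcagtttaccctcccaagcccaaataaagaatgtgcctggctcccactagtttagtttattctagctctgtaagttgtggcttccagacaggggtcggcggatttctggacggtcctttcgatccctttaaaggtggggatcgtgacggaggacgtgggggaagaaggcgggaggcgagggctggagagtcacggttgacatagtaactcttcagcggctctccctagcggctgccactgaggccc
Itga2b: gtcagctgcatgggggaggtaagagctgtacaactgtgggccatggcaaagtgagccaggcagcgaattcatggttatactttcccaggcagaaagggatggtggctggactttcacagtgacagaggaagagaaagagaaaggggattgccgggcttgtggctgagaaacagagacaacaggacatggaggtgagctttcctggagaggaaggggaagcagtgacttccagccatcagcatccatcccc
Ppbp: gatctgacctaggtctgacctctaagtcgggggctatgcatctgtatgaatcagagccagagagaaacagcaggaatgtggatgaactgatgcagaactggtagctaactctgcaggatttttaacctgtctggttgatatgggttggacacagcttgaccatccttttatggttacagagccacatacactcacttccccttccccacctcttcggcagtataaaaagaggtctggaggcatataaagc

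Pear1 held the ETS motif at 2 places, both in reverse orientation, and Mmrn1 held TGATAA at 1 place. These letters were not found in the windows of Selp, Trpc6, Itga2b, and Ppbp, which says nothing of the factors themselves. The windows of Pear1 and Mmrn1, and most of that of Itga2b, lie inside the span that GENCODE vM21 gives for these genes. Among the 32 members with a promoter in the RefSeq table, AGATAA was present in 4 (12.5%, against 10.3% of 27025 genes), any of the 4 GATA forms in 8 (25.0%, against 27.1%), CAGGAAG in 6 (18.8%, against 10.5%), TGAGTCA in 2 (6.25%, against 4.43%), and TGTGGT in 2 (6.25%, against 14.2%). The members with CAGGAAG were Serpine2, Pear1, F2rl3, Tbxa2r, Timp3, and Gp1ba. A match describes letters in a window and not a bound site. Vwf, Nfe2, Rab27b, Bin2, Itgb3, and Gng11 were not matched.

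The 6 called members lie on different chromosomes. In mm10, with GENCODE vM21, Selp spans chr1:164115264-164150026 (plus strand), Pear1 chr3:87747890-87824306 (minus), Mmrn1 chr6:60924976-60989378 (plus), Trpc6 chr9:8544142-8680741 (plus), Itga2b chr11:102453297-102470122 (minus), and Ppbp chr5:90768518-90770063 (plus). Exons of antisense genes cover 14.1% of the exonic bases of Selp, and exons of Lrrc71 on the same strand cover 4.73% of those of Pear1. Whether reads were assigned by strand is not given in the sources used here, so such reads are uncertain. Mmrn1, Trpc6, Itga2b, and Ppbp have no exonic overlap with another gene.

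Beyond the members, 62 of 63 genes of the wider megakaryocyte and platelet pathway were tested. In Asxl1Y588XTg against WT, their median log2 fold change was 0.04. Genes that rose included Clu, which encodes the secreted chaperone clusterin (2.697, SE 0.245), F11r, an adhesion molecule of platelets and endothelium (2.55, SE 0.223), Socs3, an inhibitor of JAK-STAT signaling (1.56, SE 0.188), and Prkcq, a protein kinase C isoform (1.06, SE 0.221), with edgeR adjusted p-values from 0.0011 to 0.0488. In the double mutant against Asxl1Y588XTg, 4 pathway genes fell and 0 rose (1.59% and 0.145% of all tested genes), namely Esam, a junction protein that is also counted among the HSC markers, F11r, Socs3, and Prkcq, by 1.73, 1.66, 1.72, and 1.13 on the log2 scale. In the other 3 comparisons of genotypes edgeR called 0 pathway genes. Among these rises, Prkcq lost its call in 5 of the 6 fits that each left a library out, being called only without Asxl1Y588XTg library 3. The fall of Prkcq was lost without double mutant library 1 or 2.

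Thbs1, which encodes thrombospondin, a major protein of platelet granules, went the other way. It was at 135, 174, and 120 CPM in WT, 41.3, 50.1, and 22.0 CPM in Kdm6bΔ/+, 42.5, 42.9, and 33.0 CPM in Asxl1Y588XTg, and 47.5, 26.7, and 70.6 CPM in Asxl1Y588XTg Kdm6bΔ/+. All WT libraries were above all 9 others. Thbs1 fell by 1.86 (SE 0.152, edgeR adjusted p = 0.0011) in Asxl1Y588XTg against WT, while -1.92 (SE 0.329, edgeR adjusted p = 0.536) in Kdm6bΔ/+ and -1.55 (SE 0.354, edgeR adjusted p = 0.386) in the double mutant against WT were not called.

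The transcription factor genes of the lineage were not called in any comparison. Against WT, the log2 fold changes in Asxl1Y588XTg were -0.35 (SE 0.298) for Gata1, 0.08 (SE 0.0838) for Fli1, 0.00 (SE 0.0747) for Runx1, -0.27 (SE 0.465) for Gfi1b, and 0.15 (SE 0.232) for Tal1. Fli1 was at 282 to 322 CPM in WT and 297 to 341 CPM in Asxl1Y588XTg, and Runx1 at 178 to 190 and 179 to 198 CPM. Gata1 ranged from 27.3 to 61.1 CPM in WT and from 35.2 to 45.4 CPM in Asxl1Y588XTg. Of the 12 pathway genes for transcription factors, 0 were called in the 5 comparisons.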

How the data were processed

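RNA of LK cells from individual mice was sequenced as 50-base single reads, 3 libraries for each of 4 genotypes. Per the labels and the study's methods, the authors trimmed reads with Trimmomatic, aligned them to mm10 with STAR, and deposited raw counts per gene from HTSeq, with FastQC also named, in one table of 55291 genes and 12 libraries. The annotation and the strand setting of the counting are not given in the sources used here. The labels and the study's methods name different library kits and sequencers.

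Genes were filtered with filterByExpr over the 4 genotypes, which left 15825. Each pair of genotypes was fitted on its 6 libraries with edgeR 4.0.16 (robust quasi-likelihood test, TMM scaling) in R 4.3.3, and the interaction on all 12. A gene was called at a Benjamini-Hochberg adjusted p under 0.05 over all genes tested and a fold change above 1.5. Log2 fold changes are given with their standard errors. DESeq2 1.42.0, a fit to all genotypes, other scaling and filters, a term for Y-linked transcripts, and leaving out each library were alternatives. The median correlation of deviations between libraries with the same replicate number was -0.06 over 18 pairs, so no pairing by number was seen. Such a value cannot tell whether mice of the same number shared a litter or a day of work. Whether the mice of a genotype were littermates is not given, and p-values weigh a difference between genotypes against the spread between these libraries.

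The members, picked by known role, and the gene lists were chosen with earlier results of these data known. Genes named with values were the members called in a comparison, 12 that define the lineage, and in each comparison the 3 with the largest absolute log2 fold change among members whose normalized count averaged 50 or more. Other members were named by role, after their values were seen. Exon lengths and positions came from GENCODE vM21 and promoters from RefSeq (GRCm38.p6). Some values of the wider pathway list are not reported here.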

Additional observations from a re-analysis of the deposited data

How the results depend on the processing

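The number of members called depended on the fit, and the cause was not tested. Shares in brackets are of all genes tested in that fit, called in either direction. The term for Y-linked transcripts was added to the fit to all 4 genotypes, so its counts are to be read beside those of that fit. In Asxl1Y588XTg against WT, the 4 members called higher became 11 with DESeq2 (2.98%), 11 with a fit to all 4 genotypes (2.82%), 12 without an expression filter (2.05%), and 2 to 8 when 1 library was left out (0.695% to 1.59%; 2 without WT 1, 8 without Asxl1Y588XTg 3). In the double mutant against Asxl1Y588XTg, the 2 called lower became 7 with DESeq2 (2.82%), 5 with the fit to all genotypes (1.02%), 6 without a filter (2.62%), and 1 to 4 when 1 library was left out (0.354% to 1.73%; 1 without double mutant 1, 4 without Asxl1Y588XTg 3 or double mutant 3), and the 0 called higher became 1 without a filter (Tubb1) and 0 to 1 when 1 library was left out (Ppbp, without Asxl1Y588XTg 2). In Kdm6bΔ/+ against WT, the 0 called lower became 1 without a filter (0.18%) and 0 to 1 when 1 library was left out (0.0442% to 0.164%), in both cases Vwf (without WT 2). In the double mutant against Kdm6bΔ/+, the 2 called higher became 8 with DESeq2 (0.657%), 0 with the fit to all genotypes (0.019%), 11 without a filter (0.691%), 0 with a term for Y-linked transcripts (0.0126%), and 0 to 4 when 1 library was left out (0.0316% to 0.215%; 0 without library 1 or 3 of either genotype, 4 without library 2 of either). In the double mutant against WT, the 1 called higher became 2 with DESeq2 (0.72%), 0 with the fit to all genotypes (0.0885%), 3 without a filter (0.601%), 0 with the term for Y-linked transcripts (0.019%), and 0 to 1 when 1 library was left out (0.0885% to 0.316%; 0 without library 1 or 3 of either genotype). The interaction gave 5 members called lower without a filter (0.789%). The summed level of the double mutant over WT was 1.13, and 1.22 as a median ratio over members. In the fit to all 4 genotypes, the members' median log2 fold change in Asxl1Y588XTg against WT was 0.67 with the Y-linked term and 0.79 without it. In the same order, the medians were -0.43 and -0.26 in the double mutant against Asxl1Y588XTg, and -0.25 and -0.18 in Kdm6bΔ/+ against WT. They were 0.44 and 0.52 in the double mutant against Kdm6bΔ/+, and 0.15 and 0.25 in the double mutant against WT. Over 80 pairs of a gene and a comparison, 940 of 1058 values under alternatives kept direction and side of the threshold, 46 lost and 71 gained a call, and 1 reversed, Itga2b in the double mutant against WT, which was -0.19 with the term for Y-linked transcripts.

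With the replicate number as a block, Asxl1Y588XTg against WT gave 2 members called higher (Pear1 and Selp; 0.638% of all tested genes), the double mutant against Asxl1Y588XTg gave 1 called lower (Selp; 0.449%), and the double mutant against WT gave 3 called higher (Mmrn1, Ppbp, and Vwf; 0.417%). The correlation of deviations ran from -0.15 to 0.15 for libraries of the same number and from -0.24 to 0.22 for those of different numbers. No greater likeness of libraries with the same number was thus seen. Gp1bb and Gp6, with at most 24 reads in a library, did not pass the filter, so their differences were not tested at this depth outside the fits without it.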
